A study of Mus musculus with 9 samples.

Results

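RNA from whole mouse retinas was compared between Yap CKO animals at postnatal day 60 (P60) and wild-type animals at postnatal day 30 (P30), across all genes, to describe which parts of the retinal injury response were present when Yap was deleted in Müller cells. The comparison holds 6 of the 9 libraries of the series, chosen by their labels: 3 Yap CKO libraries and 3 C57 libraries. The C57 retinas were wild type, on the C57Bl6/J strain, and their records were taken over from an earlier series for re-analysis. Yap CKO retinas carried Yap flox/flox alleles together with Rax-CreERT2, a tamoxifen-dependent Cre recombinase whose promoter is meant to limit deletion to Müller cells. In which cells, and how completely, Yap was deleted was not tested in these whole retinas. The remaining 3 libraries are P60 controls, described as Yap flox/flox without Cre, although their genotype label also reads Yap CKO. They are used here only to show where Yap CKO and control differed. All P60 animals, controls included, received 4-hydroxytamoxifen at P10, and the labels place all 3 groups on C57Bl6/J. The column names of the P60 libraries carry the letters MNU, the usual abbreviation of N-methyl-N-nitrosourea, an alkylating agent that kills photoreceptors, but the labels describe no such treatment, dose or time. Genotype, floxed allele, tamoxifen, injury, age, source series and sequencing depth all separate the Yap CKO from the C57 libraries and cannot be told apart. Each P60 library came from 1 frozen retina. The labels do not say that the retinas of a group came from separate animals, so p-values measure only the spread between these samples.

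Müller cells are the main glia of the retina. They span its whole thickness, recycle glutamate, buffer potassium and water, and hold photoreceptors in place. When photoreceptors die, Müller cells raise intermediate filaments and acute-phase proteins, signal through the cytokine receptor subunit gp130 and STAT3, and in fish and chicks re-enter the cell cycle, a step that is rare in mammals. YAP and its paralog TAZ are coactivators that move to the nucleus when the Hippo kinases are inactive and act mainly through the TEAD DNA-binding factors.

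Sequencing depth was 13760765 to 16808499 counted reads per C57 library, and the 6 P60 libraries were deeper, with 34739679 to 37629264. On the first principal component, with 76.2% of the variance, C57 lay apart from every P60 library. Yap CKO library 3 stood apart within its group in 2 ways. Its rod genes were the lowest, with Gnat1, which encodes a rod G protein subunit, at 4657, 2375 and 145 CPM (CPM, read counts scaled to a common library size, here by TMM) in Yap CKO libraries 1, 2 and 3. Its lens genes were the highest, with a mean log2(CPM + 1) over the lens list of 4.72 against at most 1.01 in any of the other 8 libraries. Y-linked genes were detected above 1 CPM in 1 of 3 C57, 3 of 3 control and 1 of 3 Yap CKO libraries, so the sexes were not balanced, and their part in the results was not tested. The Müller cell genes Glul, Rlbp1 and Slc1a3 were abundant in all 9 libraries. Because these are whole retinas, fewer cells of a type and less RNA per cell cannot be told apart.

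Yap1 (ENSMUSG00000053110, GRCm38 chr9:7931999-8004596, minus strand), the targeted gene, measured 23.9, 25.8 and 31.1 CPM in the C57 libraries (replicates 1 and 2 and the unnumbered library, the order used throughout). It measured 15.2, 21.4 and 24.0 CPM in Yap CKO 1, 2 and 3, and 66.3, 60.4 and 56.9 CPM in control 1, 2 and 3. All 3 Yap CKO libraries were below all 3 controls, and library 3 lay just above the lowest C57 library. Against control, the difference was -1.60 ± 0.17 (log2 fold change ± SE, n = 3 against 3, adjusted p = 0.0327, edgeR's quasi-likelihood test with Benjamini-Hochberg adjustment, used for every adjusted p that follows). Against C57, the difference was -0.41 ± 0.20 (95% interval -0.86 to 0.04, adjusted p = 0.126) and did not pass 0.05. The gene count also includes exons outside any deleted part, and which exon was floxed is not given in the sources used here. Wwtr1, which encodes TAZ, rose from 20.2, 23.2 and 26.9 CPM to 51.2, 51.8 and 47.0 CPM (1.10 ± 0.15, adjusted p = 0.000758), and no library of the groups overlapped. Control animals averaged 69.6 ± 2.92 CPM of Wwtr1 (SD, n = 3), and the Yap CKO difference from them of -0.48 did not pass (adjusted p = 0.0515).

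Of 15840 genes tested, 3217 (20.3%) were higher and 3202 (20.2%) lower in Yap CKO than in C57, and 8707 (55.0%) had groups that did not overlap. In either direction, 40.5% passed. In control against C57, 23.1% of 15820 genes were higher and 22.4% lower. These shares are the background against which the counts below should be read. With a fold change of at least 2 also required, 1832 (11.6%) were higher and 1397 (8.82%) lower, and 360 genes rose and 171 fell by at least 8-fold. Between Yap CKO and control, 33 of 16539 genes (0.2%) passed, 30 lower (0.181%) and 3 higher (0.0181%). In that comparison 2950 genes had an unadjusted p below 0.05 and DESeq2 called 922, both in either direction, around a median of 0.01. For these 2 levels, shares by direction were not computed over all genes, nor was the share of differences below 0. Counts of lower members against control given below therefore have no matched background. Of the 6308 genes that passed against C57 and were also tested against control, 23 passed against control. A gene that missed the threshold there is not shown to be equal in both. The median log2 fold change over all genes against C57 was 0.02 in Yap CKO and 0.03 in control, 2 comparisons that share the C57 libraries. Without C57 2 the counts were 2007 higher and 1979 lower, and without Yap CKO 2 they were 2024 and 1881. For Yap CKO against C57, the authors' deposited table lists 305 genes, filtered by the authors on Yap CKO against control. Of these, 299 were tested here, all with the same sign, and 211 of its 225 genes with an adjusted p under 0.05 also passed here. The median absolute difference in log2 fold change was 0.001. The table comes from the same series, so this is no independent check. In the 7 response lists in which no member was lower, at most 1 member was lower with an unadjusted p below 0.05, and 0 were lower by DESeq2. Members with almost no C57 reads passed the count filter through their Yap CKO reads and could only be called higher.

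The genes with the largest rise belonged to several parts of the response. Serpinb2, which encodes a plasminogen activator inhibitor, had 0 counts in all C57 libraries and 14.6, 22.8 and 15.1 CPM in Yap CKO, at least 229-fold higher than the 3 counts over the C57 group used as the floor for a count of 0. Prss56, which encodes a serine protease made in the retina by Müller cells, rose from 6.77, 2.44 and 1.78 CPM to 1206, 1701 and 1939 CPM (8.81 ± 0.59, adjusted p = 6.76e-05). Aldh1a3, a retinoic acid-synthesising enzyme, rose from 0.343, 0.222 and 0.639 CPM to 104, 175 and 196 CPM (8.59 ± 0.40, adjusted p = 8.13e-06). It also marks the ciliary epithelium and iris, whose other members are given below. Control values of 16.4 ± 2.21, 1820 ± 276 and 70.3 ± 17.9 CPM for these 3 genes (SD, n = 3) were not separated from Yap CKO by the test (adjusted p = 0.859, 0.701 and 0.158). The largest falls outside photoreceptors included Abca6, a lipid transporter (-5.20), Etnppl, an enzyme of phosphoethanolamine breakdown (-4.08), and the microglial receptor P2ry12 (-3.98). Srp54a showed the largest fall of all (-7.12), but it has near-identical copies among which the reads could have been split.

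**Figure D1:**
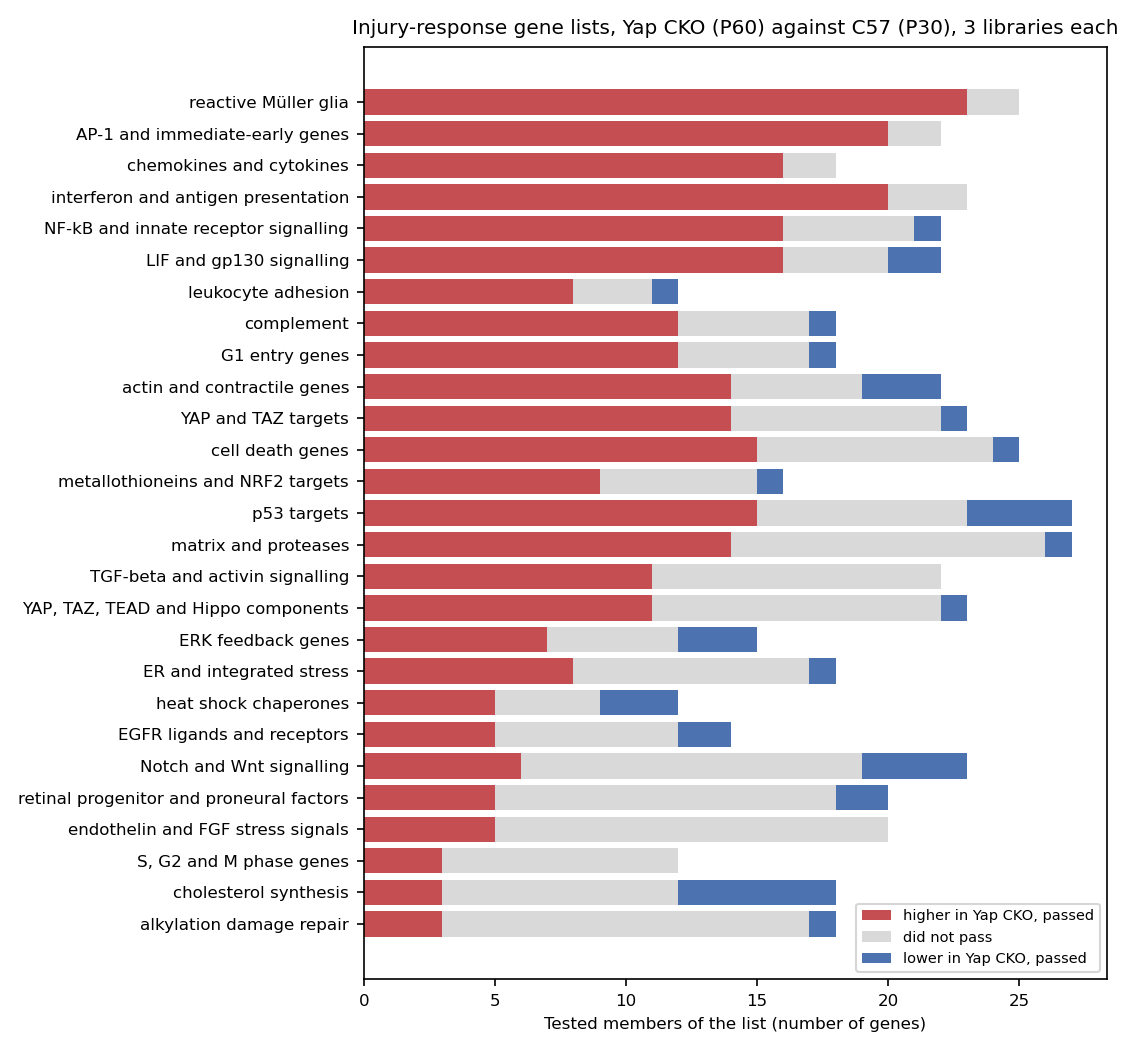
Gene lists of the injury response, 1 bar per list, with the number of tested members on the horizontal axis. Red marks members higher in Yap CKO than in C57, blue marks lower members and grey marks those that did not pass; 23 of 25 reactive Müller glia genes and 20 of 22 AP-1 and immediate-early genes were higher, against 3 of 18 alkylation repair genes.

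The sequences upstream of 3 genes with large rises are shown, the reactive glia genes Timp1 and Lcn2 and the cytokine gene Lif. They were searched for motifs of STAT, AP-1 and TEAD factors, whose pathways have gene lists below. The windows are the 250 bases before each RefSeq start site (GRCm38.p6), written 5′ to 3′ on the strand of the gene, at chrX:20869916-20870165 (plus strand) for Timp1, chr11:4257318-4257567 (plus strand) for Lif and chr2:32387740-32387989 (minus strand) for Lcn2. Capitals mark matches to 3 motifs, each searched on both strands. The STAT motif was TTCNNNGAA. The AP-1 motif was TGANTCA. The TEAD motif was GGAATG.
Timp1: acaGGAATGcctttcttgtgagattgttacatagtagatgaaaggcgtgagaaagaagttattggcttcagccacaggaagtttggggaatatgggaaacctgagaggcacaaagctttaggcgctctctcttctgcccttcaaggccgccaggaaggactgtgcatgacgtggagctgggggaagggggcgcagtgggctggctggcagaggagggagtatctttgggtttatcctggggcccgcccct
Lif: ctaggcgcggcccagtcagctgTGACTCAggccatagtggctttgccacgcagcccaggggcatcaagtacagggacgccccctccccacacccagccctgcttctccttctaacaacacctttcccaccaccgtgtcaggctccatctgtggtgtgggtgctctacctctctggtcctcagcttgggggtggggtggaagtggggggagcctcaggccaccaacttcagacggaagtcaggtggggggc
Lcn2: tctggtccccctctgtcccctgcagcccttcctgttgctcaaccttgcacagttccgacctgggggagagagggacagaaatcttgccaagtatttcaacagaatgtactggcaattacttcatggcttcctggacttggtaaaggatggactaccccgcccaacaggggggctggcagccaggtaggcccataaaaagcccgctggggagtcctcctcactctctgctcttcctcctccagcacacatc
The Timp1 window held 1 TEAD match, at -247 from the start, and the Lif window 1 AP-1 match, TGACTCA, at -228. No match lay in the Lcn2 window. Among 32817 mouse promoter windows of the same length, 7.01% held a STAT match, 6.75% an AP-1 match and 12.6% a TEAD match. A match describes letters only, and its absence says nothing about the factor.

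Reactive gliosis genes were high in the Yap CKO retinas. Of 25 members of the list, 23 were higher than in C57 (92.0%, against 20.3% of all genes) and none lower, with a median log2 fold change of 3.50. Gfap, the intermediate filament that marks reactive Müller cells, measured 79.5, 35.8 and 57.6 CPM in C57 and 661, 679 and 552 CPM in Yap CKO. All 3 Yap CKO libraries lay above all C57 libraries (3.46 ± 0.28, adjusted p = 8.32e-05) and also above the 3 controls at 354, 237 and 309.6 CPM, but the difference from control of 1.07 did not pass (adjusted p = 0.0533). Timp1, which encodes a metalloproteinase inhibitor, rose from 0.257, 0 and 0.213 CPM to 57.4, 78.5 and 55.1 CPM (8.66 ± 0.41, adjusted p = 8.15e-06). Lcn2, an acute-phase iron-siderophore carrier, rose from 5.74, 6.22 and 4.12 CPM to 346, 654 and 313 CPM, with Yap CKO 2 the highest (6.36 ± 0.36, adjusted p = 2.79e-05). Cebpd, the transcription factor of the acute phase, rose from 2.57, 2.29 and 1.21 CPM to 120.1, 168 and 134 CPM (6.13 ± 0.28, adjusted p = 8.08e-06). The filament genes Vim and Nes rose by 3.05 and 3.73 and the hyaluronan receptor Cd44 by 4.25. Serpina3n also rose (5.57), with reads that near-identical family members could share.

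The 2 members of this list that did not pass were Fgf2, a neuroprotective growth factor, and Edn2, an endothelin released by injured photoreceptors. Edn2 measured 1.20, 0.444 and 1.21 CPM in C57 and 10.9, 8.27 and 0.348 CPM in Yap CKO. Libraries 1 and 2 were above every C57 library and library 3 below all of them (2.79 ± 1.24, adjusted p = 0.125). Without Yap CKO 3, 24 of the 25 genes were higher, Edn2 and Fgf2 included (adjusted p = 0.000826 and 0.0181). In control against C57, all 25 passed and were higher, with a median of 3.76. Direct comparison of Yap CKO with control gave a median of -0.01 over the list. There 1 member passed, the calcium-binding protein gene S100a6. It measured 94.8, 98.4 and 95.4 CPM in Yap CKO and 183, 139 and 158 CPM in control, with no overlap (-0.73 ± 0.10, adjusted p = 0.0496), and both groups were far above the C57 values of 6.51, 3.55 and 7.46 CPM.

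LIF, a cytokine of the interleukin-6 family, acts through gp130 and STAT3 and is known to be released by Müller cells after photoreceptor injury. Of 22 tested genes of this pathway, 16 were higher (72.7%) and 2 lower, or 15 and 0 without Yap CKO 3, with a median of 2.1. Among the ligands, Lif rose from 0.257, 0.296 and 0.355 CPM to 86.6, 71.8 and 50.6 CPM (7.82 ± 0.32, adjusted p = 6.73e-06). The control libraries held 145, 181 and 179 CPM, above all Yap CKO libraries, but the difference of -1.28 ± 0.20 (95% interval -1.77 to -0.79) did not pass (adjusted p = 0.0738). Clcf1, a second ligand of the family, rose by 5.94 ± 0.26, and Ctf1 fell by 0.98 on the log2 scale (adjusted p = 0.0256). Of the receptor subunits, Osmr rose from 14.1, 12.4 and 21.2 CPM to 185, 184 and 172 CPM (3.50), Il6ra rose by 3.63, Il6st, which encodes gp130, rose by 0.66, and Lifr fell by 0.73 (adjusted p = 0.0425). Stat3 rose from 68.6, 49.5 and 59.8 CPM to 318, 321 and 299 CPM (2.40 ± 0.15, adjusted p = 3.02e-05), where control held 333 ± 23.3 CPM. The feedback inhibitor Socs3 rose from 1.63, 1.41 and 1.85 CPM to 56.4, 47.5 and 40.7 CPM (4.89 ± 0.21, adjusted p = 6.76e-06), against 50.1 ± 10.3 CPM in control. No gene of this list passed between Yap CKO and control. Of 25 members tested there, an unadjusted p below 0.05 was reached by 4 lower members and 1 higher member. This share is near that of all genes, 2950 of 16539. DESeq2 called 3 members lower, beside 922 of all genes in either direction. The falls of Ctf1 and Lifr missed the threshold without Yap CKO 2 (adjusted p = 0.0919 and 0.121) and in several of the other leave-one-out fits.

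Of 20 endothelin and growth factor genes, 5 were higher (25%, near the 20.3% of all genes) and none lower. Ednrb, the endothelin B receptor of glia, rose from 8.31, 9.25 and 14.8 CPM to 309.9, 412 and 592 CPM (5.34 ± 0.33, adjusted p = 3.08e-05), and the neurotrophic factor gene Gdnf rose from 0.171, 0.370 and 0.284 CPM to 1.69, 4.21 and 3.91 CPM (3.53 ± 0.51, adjusted p = 0.0011). Fgfr1, an FGF receptor, rose less: 38.3, 31.2 and 29.0 CPM in C57, 50.3, 61.6 and 61.4 CPM in Yap CKO and 90.0, 95.2 and 97.5 CPM in control, in 3 ranges that did not overlap. It passed against C57 (0.82 ± 0.16, adjusted p = 0.004) and, in the other direction, against control (-0.71 ± 0.09, adjusted p = 0.0496).

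**Figure D2:**
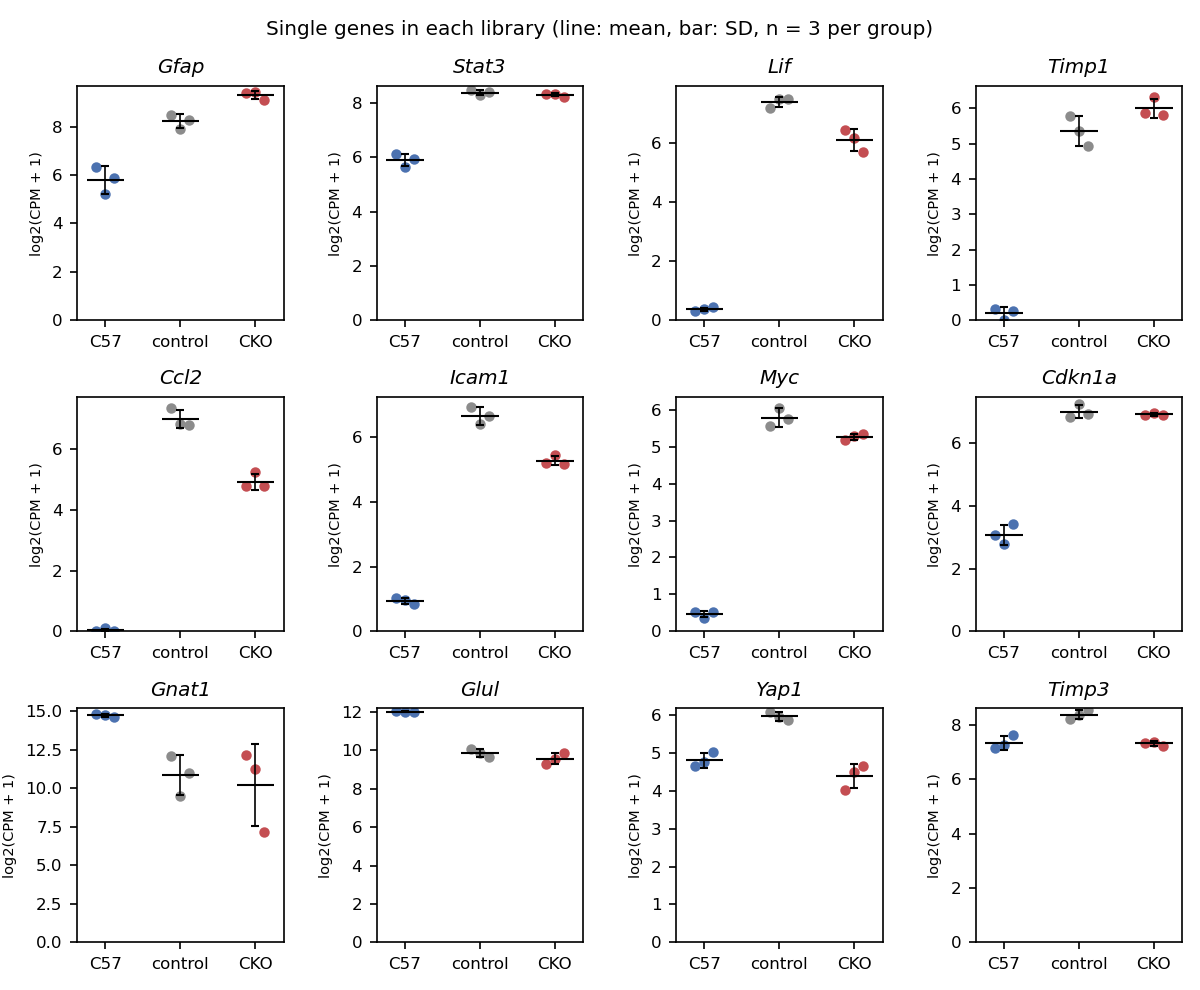
Levels of 12 genes in each library, as log2(CPM + 1) on vertical axes that start at 0, with points for libraries, lines for means and bars for the SD (n = 3 per group). Gfap, Stat3, Lif, Timp1, Icam1, Myc and Cdkn1a were higher in Yap CKO than in C57, Glul was lower, and Yap1 and Timp3 in Yap CKO lay near C57 and below control.

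Genes of the Müller glia homeostasis list, which includes the filament gene Vim described with the reactive genes above, were split. Of 23 tested, 7 were higher (30.4%) and 10 lower (43.5%, against 20.2% of all genes) than in C57, and the same 2 numbers were found without Yap CKO 3. Glul, glutamine synthetase, which turns glutamate into glutamine, measured 4276, 4135 and 4022 CPM in C57 and 618, 759 and 931 CPM in Yap CKO, with no overlap (-2.42 ± 0.18, adjusted p = 5.35e-05), and 934 ± 144 CPM in control. The water channel gene Aqp4 fell from 179, 194 and 269.9 CPM to 31.9, 24.5 and 57.1 CPM (-2.50 ± 0.32), and the potassium channel gene Kcnj10 from 130.3, 172 and 172 CPM to 45.0, 43.4 and 58.1 CPM (-1.69 ± 0.17). Abca8a, a lipid transporter (-3.52), Car14, a carbonic anhydrase (-3.10), Rlbp1, the retinaldehyde-binding protein of the visual cycle (-1.69), and Slc38a3, a glutamine transporter (-1.85), also fell. In the opposite direction, the transcription factor gene Sox2 rose from 18.3, 19.7 and 19.8 CPM to 79.5, 79.5 and 107 CPM (2.20 ± 0.16, adjusted p = 4.73e-05), and Crym, a thyroid hormone-binding protein gene, from 118, 92.1 and 93.8 CPM to 701, 612 and 956 CPM (2.91 ± 0.20, adjusted p = 3.98e-05). Dbi, which encodes acyl-CoA binding protein, measured 125, 115 and 142 CPM in C57, 161, 143 and 160.4 CPM in control and 221, 226 and 239 CPM in Yap CKO. It was higher in Yap CKO than in C57 (0.85 ± 0.13, adjusted p = 0.00135) and than in control (0.56 ± 0.07, adjusted p = 0.0496), while control against C57 did not pass (0.30, adjusted p = 0.0664). It was the only member of the list that passed between Yap CKO and control.

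**Figure D3:**
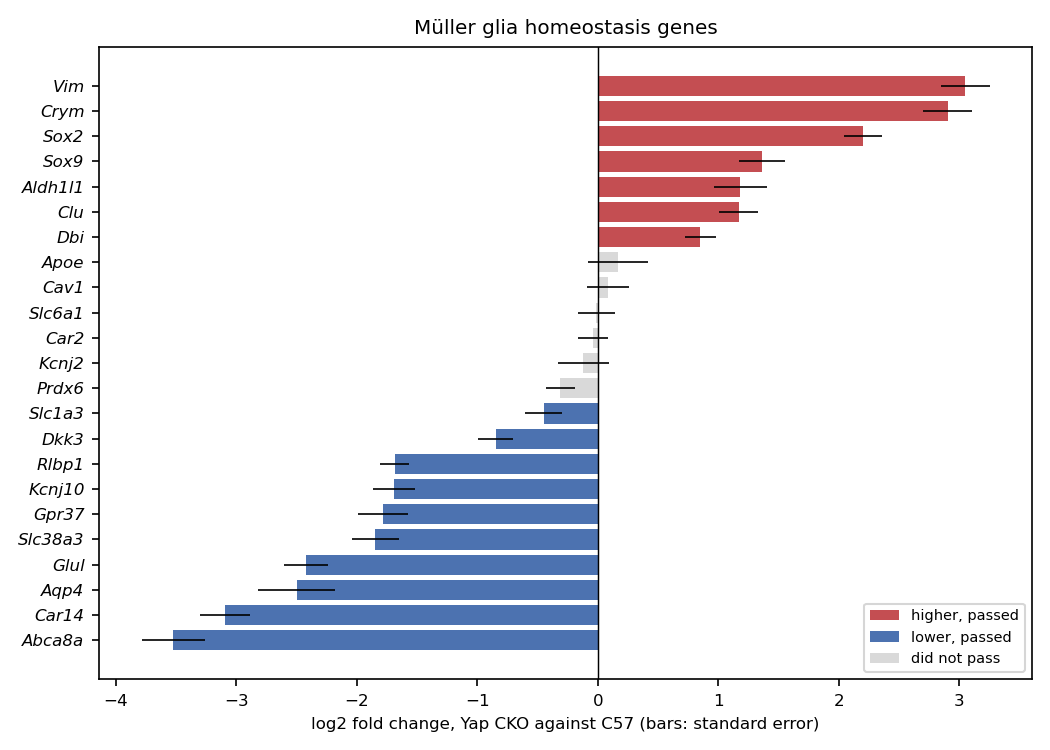
Log2 fold changes of the 23 tested Müller glia homeostasis genes, Yap CKO against C57, with standard errors as bars. Red bars (7 genes, Vim and Crym the highest) and blue bars (10 genes, Abca8a and Car14 the lowest) passed the test, and 6 grey bars did not.

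Immediate-early genes, the transcription factors that cells switch on within minutes of a stimulus, were high. Of 22 tested, 20 were higher and none lower, with medians of 2.44 in Yap CKO and 2.68 in control, and the same count of 20 was found without Yap CKO 3. Myc, the growth-promoting transcription factor, measured 0.428, 0.296 and 0.426 CPM in C57 and 35.0, 37.8 and 39.7 CPM in Yap CKO (6.6 ± 0.21, adjusted p = 4.94e-06). Fosl1, an AP-1 subunit, measured 0.257, 0.148 and 0 CPM in C57, 86.4, 88.8 and 92.8 CPM in Yap CKO and 150.2, 177 and 158 CPM in control. It passed against control, with lower values in Yap CKO (-0.86 ± 0.08, adjusted p = 0.0188). The AP-1 subunits Jun, Jund, Fos, Fosl2, Atf3 and Maff rose by 2.76, 3.01, 1.52, 1.59, 3.38 and 3.18. Egr2 had 1 count in the C57 group and 15.5, 15.8 and 22.4 CPM in Yap CKO, a ratio of 705 with a 95% counting interval of 126 to 27850. Klf4 did not pass (0.44, adjusted p = 0.11), nor did Nr4a1 (0.61, adjusted p = 0.494), which measured 39.0, 20.7 and 7.02 CPM in Yap CKO, lowest in library 3. Against control, an unadjusted p below 0.05 was reached by 11 lower members and 1 higher member, and Fosl1 alone passed. DESeq2 called 7 lower and 1 higher. Of all 16539 genes, 2950 (unadjusted) and 922 (DESeq2) did so in either direction.

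Of 14 genes for EGF-family ligands and their receptors, 5 were higher (35.7%) and 2 lower. The ligand gene Hbegf measured 12.2, 14.7 and 16.8 CPM in C57, 81.7, 85.1 and 86.5 CPM in Yap CKO and 132, 188 and 163 CPM in control, in 3 ranges without overlap. It was higher than in C57 (2.54 ± 0.15, adjusted p = 2.81e-05) and lower than in control (-0.94 ± 0.13, adjusted p = 0.0496). Tgfa (1.73) and Areg (1.89), 2 further ligand genes, rose, and Ereg had 0 counts in C57 and was at least 17.3-fold higher. The receptor gene Egfr did not pass: 27.2, 18.7 and 26.4 CPM in C57 and 20.4, 27.2 and 27.5 CPM in Yap CKO overlapped, with a difference of 0.06 (95% interval -0.38 to 0.50, adjusted p = 0.819). Control held 48.8, 43.4 and 38.8 CPM of Egfr, above every Yap CKO library, with a difference of -0.81 that did not pass (adjusted p = 0.0676). Erbb3 and Erbb4 fell (-1.57 and -0.79), the latter not without Yap CKO 2, Yap CKO 1, C57 2 or the unnumbered C57 library (adjusted p = 0.0647 to 0.112). Over the 14 EGF-family genes, 11 fitted differences from control were below 0, with a median of -0.495. At an unadjusted p under 0.05, 6 were lower and 0 higher, beside 2950 of all 16539 genes in either direction. DESeq2 called 5 lower, beside 922 of all genes in either direction. Among 15 ERK feedback genes, which this receptor family drives, 7 were higher (46.7%) and 3 lower. Phlda1 (2.41), the phosphatase gene Dusp6 (1.23) and the inhibitor gene Spry2 (1.03) rose, while Dusp4 (-0.83) and the transcription factor gene Etv5 (-0.65) fell.

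Genes that carry cells from rest into G1 were mostly higher, and genes of later phases mostly did not pass. Of 18 G1 genes, 12 were higher (66.7%) and 1 lower, and 12 and 0 without Yap CKO 3. Ccnd1, cyclin D1, rose from 36.4, 34.1 and 42.8 CPM to 84.9, 131 and 158 CPM (1.73 ± 0.23, adjusted p = 0.000735), and control held 188, 265 and 220.3 CPM, above all Yap CKO libraries, without passing (difference -0.85, adjusted p = 0.182). Ccnd3 measured 63.9, 48.6 and 38.5 CPM in C57 and 93.4, 89.2 and 177 CPM in Yap CKO, where library 3 was highest (1.25 ± 0.30, adjusted p = 0.011). It missed the threshold without C57 2 (adjusted p = 0.0501) or the unnumbered C57 library (adjusted p = 0.0587). The kinase genes Cdk4 and Cdk6 rose by 1.34 and 2.05 and the transcription factor gene E2f1 by 2.04. Cdkn1a, the p21 inhibitor of these kinases, rose too, from 7.37, 5.85 and 9.66 CPM to 118, 125 and 118 CPM (3.98 ± 0.20, adjusted p = 9.36e-06). Of 20 S, G2 and M phase genes, 12 passed the count filter and 3 were higher (25%, near the 20.3% of all genes): Mcm5, Mcm6 and Top2a. Mcm6, a helicase subunit of replication, rose from 8.05, 8.37 and 6.53 CPM to 12, 16.1 and 16.9 CPM (0.98 ± 0.20, adjusted p = 0.00535). Pcna, the replication clamp, measured 73.7, 78.1 and 75.3 CPM and 85.0, 92.8 and 74.0 CPM and did not pass (adjusted p = 0.369). Mki67, Cdk1, Ccnb1, Ccnb2, Aurkb, Bub1, Rrm2 and Birc5 were too low to be tested, at means of at most 0.37 CPM in Yap CKO. Without Yap CKO 3, or without Yap CKO 1, Yap CKO 2 or the unnumbered C57 library, 1 of these genes passed.

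Of 20 progenitor and proneural factors, 5 were higher (25%) and 2 lower, and 8 were higher without C57 1. Neurog2, a proneural factor, rose from 1.71, 1.63 and 3.12 CPM to 18.1, 23.4 and 32.6 CPM (3.51 ± 0.32, adjusted p = 0.000151). Sox9 and Sox11 rose by 1.36 and 1.38, and Insm1 fell by 2.34 on the log2 scale (adjusted p = 0.000119). Notch and Wnt pathway genes passed at shares near those of all genes, with 6 of 23 higher (26.1%) and 4 lower (17.4%), or 2 lower without C57 1, C57 2 or Yap CKO 2. Notch1 rose from 30.1, 17.8 and 19.3 CPM to 53.1, 66.9 and 76.3 CPM (1.55 ± 0.23), and the Wnt receptor gene Fzd1 rose by 1.64. The Notch-regulated Nrarp fell from 9.0, 9.48 and 9.66 CPM to 2.75, 2.74 and 3.88 CPM (-1.58 ± 0.21), and Dkk3, a secreted protein gene of Müller cells, by 0.85.

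Inflammatory genes were high as well, and several of the genes that differed from control lay here. Of 18 tested chemokine and cytokine genes, 16 were higher than in C57 (88.9%, and 15 without Yap CKO 3) and none lower, with a median of 3.28. The list has 23 members, and 5 had too few reads to be tested. Members with 0 to 3 C57 counts passed the count filter through their Yap CKO reads, so they could only be called higher. Directly against control, the median over 22 tested members was -0.43 and 2 passed as lower. DESeq2 called 8 lower, beside 922 of all 16539 genes in either direction. Ccl2, the monocyte attractant, measured 0, 0.0740 and 0 CPM in C57, 26.5, 36.8 and 26.4 CPM in Yap CKO and 163, 114 and 109.9 CPM in control. Yap CKO was 1171 times C57 (95% counting interval 210.1 to 46270, on 1 C57 count) and 23.2% of control (-2.11 ± 0.20, adjusted p = 0.0369). Its neighbour Ccl7 had 0 counts in C57, 5.46, 8.12 and 6.20 CPM in Yap CKO and 30.1, 21.7 and 17.8 CPM in control, at least 86.2-fold higher than C57 and 28.4% of control (-1.82 ± 0.23, adjusted p = 0.0496). No library of the 3 groups overlapped for either gene. The neutrophil attractant Cxcl1 and the cytokine Il1b had 0 counts in C57 and were at least 21.3-fold and 16.1-fold higher. Ccl3 and Ccl4 reached 9.27, 9.38 and 8.71 CPM and 7.55, 6.0 and 7.39 CPM in Yap CKO, from 3 and 1 counts in the C57 group, ratios of 119 (40.7 to 579.6) and 274 (49.1 to 10850). Csf1, the growth factor of microglia, rose from 7.63, 6.66 and 5.97 CPM to 33.6, 43.7 and 44.9 CPM (2.60 ± 0.18, adjusted p = 3.64e-05), and the alarmin gene Il33 from 65.1, 70.3 and 82.2 CPM to 419.5, 476 and 398 CPM (2.58 ± 0.15, adjusted p = 2.22e-05). Il18 (-0.19) and Il34 (0.74) did not pass.

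Of 12 leukocyte adhesion genes, 8 were higher (66.7%, and 6 without Yap CKO 3) and 1 lower. Icam1 (ENSMUSG00000037405), an adhesion ligand for leukocyte integrins, measured 1.03, 0.962 and 0.781 CPM in C57, 35.9, 42.0 and 34.8 CPM in Yap CKO and 121, 82.7 and 98.4 CPM in control. It was higher than in C57 (5.35 ± 0.20, adjusted p = 4.94e-06) and lower than in control (-1.42 ± 0.14, adjusted p = 0.0242), and none of the 3 ranges overlapped. Vcam1, a second ligand of this kind, measured 29.6, 34.6 and 40.3 CPM, 80.1, 95.6 and 83.7 CPM and 265, 172 and 208 CPM in C57, Yap CKO and control, again without overlap (1.31 ± 0.15 against C57, adjusted p = 0.000411, and -1.31 ± 0.16 against control, adjusted p = 0.0496). The endothelial selectin genes Sele and Selp had 0 counts in C57 and were at least 26.7-fold and 36.9-fold higher. Selplg, the selectin ligand of leukocytes and microglia, fell from 7.11, 3.63 and 4.05 CPM to 0.505, 0.983 and 0.498 CPM (-2.88 ± 0.38, adjusted p = 0.000758).

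NF-kB, the transcription factor family of inflammation, and the innate receptors that feed it gave 16 of 22 genes higher (72.7%) and 1 lower, or 17 and 1 without Yap CKO 3, with medians of 1.46 in Yap CKO and 2.13 in control. Nfkb2 rose from 4.71, 3.11 and 2.06 CPM to 42.4, 60.3 and 61.8 CPM (4.08 ± 0.30, adjusted p = 4.75e-05), Bcl3, a nuclear cofactor of these subunits, by 5.98, and the adaptor gene Myd88 by 1.93. Irak2, a kinase gene of interleukin-1 receptor signalling, measured 15.5, 12.5 and 13.1 CPM in C57, 20.9, 23.2 and 22.9 CPM in Yap CKO and 40.7, 41.4 and 44.2 CPM in control. It passed in both directions, 0.71 ± 0.15 against C57 (adjusted p = 0.00639) and -0.92 ± 0.08 against control (adjusted p = 0.0188). For 20 of the 22 genes the fitted difference from control was below 0, with a median of -0.47 beside 0.01 over all genes, and Irak2 was the only member that passed. At an unadjusted p under 0.05, 12 were lower and 0 higher, beside 2950 of all 16539 genes in either direction. DESeq2 called 10 of the list lower, beside 922 of all genes in either direction. Tnfaip3, an inhibitor of NF-kB, went the other way, from 299.7, 303 and 333 CPM in C57 to 85.5, 64.5 and 29.8 CPM (-2.38 ± 0.34, adjusted p = 0.00135), with 83.5 ± 22.9 CPM in control.

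Of 23 interferon-stimulated and antigen presentation genes, 20 were higher (87.0%, and 19 without Yap CKO 3) and none lower, with a median of 1.79. Irf9, a component of the interferon-activated transcription complex, rose from 13.6, 16.0 and 11.0 CPM to 106, 97.7 and 68.3 CPM (2.75 ± 0.22, adjusted p = 6.68e-05). H2-K1, a class I antigen-presenting molecule, rose from 27.8, 26.9 and 19.7 CPM to 106, 124 and 137 CPM (2.31 ± 0.18, adjusted p = 5.88e-05), and the peptide transporter gene Tap1 by 2.71. No member passed against control. There the median over the list was -0.36, and 21 of 23 fitted differences were below 0. Of these, 5 had an unadjusted p below 0.05 and 3 passed by DESeq2, and 0 members were higher at either level. Of all 16539 genes, 2950 and 922 reached these levels in either direction. Complement gave 12 of 18 genes higher (66.7%) and 1 lower, or 13 and 1 without Yap CKO 3. C3, the central component, rose from 4.20, 4.29 and 4.12 CPM to 49.8, 62.4 and 58.9 CPM (3.77 ± 0.16, adjusted p = 6.76e-06). The protease gene Cfi rose by 2.87 and the receptor gene C3ar1 by 3.51, while Cd59a, an inhibitor of the membrane attack complex, fell by 1.39 on the log2 scale (adjusted p = 0.00212). No complement gene passed between Yap CKO and control (2 lower at an unadjusted p under 0.05, 0 by DESeq2).

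Markers of microglia, the resident macrophages of the retina, gave 5 of 18 higher and 5 lower (27.8% each, near the 20.3% and 20.2% of all genes). The resting-state genes P2ry12 and Tmem119 fell, P2ry12 from 5.06, 5.40 and 7.03 CPM to 0.354, 0.362 and 0.373 CPM (-3.98 ± 0.25, adjusted p = 3.05e-05) and Tmem119 from 4.63, 2.67 and 1.99 CPM to 0.379, 0.310 and 0.249 CPM (-3.27 ± 0.39, adjusted p = 0.000443). The lysosomal gene Cd68 rose from 1.63, 1.93 and 1.42 CPM to 19.3, 24.9 and 16.8 CPM (3.62 ± 0.24, adjusted p = 3.08e-05). Of 14 tested genes of activated microglia and macrophages, 11 were higher (78.6%, and 10 without Yap CKO 3) and none lower, among them Lgals3 (4.20), Clec7a (4.20), Gpnmb (2.25) and Mmp12 (5.27). Mmp12 measured 6.12, 9.67 and 8.31 CPM in Yap CKO and 2.50, 3.38 and 2.06 CPM in control, which did not overlap, but the difference of 1.60 did not pass (adjusted p = 0.0553). The abundant genes Ctsb, Ctsd and Apoe did not pass (0.01, 0.04 and 0.17).

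p53 targets and cell death genes held more higher members than the background share, and alkylation repair genes did not. p53 is the transcription factor that responds to DNA breaks, and of its 27 tested targets 15 were higher (55.6%) and 4 lower, or 15 and 2 without Yap CKO 3, with a median of 0.82 (control 0.58). Eda2r, a death receptor gene, rose from 0.257, 0.222 and 0.142 CPM to 8.64, 12.5 and 11.4 CPM (5.71 ± 0.32, adjusted p = 1.99e-05), and Phlda3, a survival-signal inhibitor gene, from 7.63, 5.77 and 4.19 CPM to 66.9, 72.5 and 94.9 CPM (3.75 ± 0.25, adjusted p = 3.08e-05). Mdm2, which encodes the ligase that degrades p53, measured 44.5, 52.0 and 56.3 CPM and 57.9, 52.6 and 44.9 CPM and did not pass (0.03). Sesn1, another target, fell by 1.19 on the log2 scale (adjusted p = 0.000301). Of 18 genes that repair alkylated DNA, 3 were higher, Mgmt (1.21), Alkbh2 (1.16) and Apex1 (0.91), and 1 was lower, with 0 without C57 2 or Yap CKO 2, 3 without the unnumbered C57 library and 4 without C57 1. The share of 16.7% higher lay below the 20.3% of all genes. Mgmt, the direct-reversal enzyme of methylated guanine, measured 0.685, 0.888 and 0.497 CPM in C57 and 1.59, 1.76 and 1.44 CPM in Yap CKO, and missed the threshold without Yap CKO 2 (adjusted p = 0.0505). Of 25 cell death genes, 15 were higher (60.0%, and 12 without Yap CKO 3) and 1 lower. The death receptor gene Fas rose from 0.857, 0.666 and 0.710 CPM to 5.74, 7.16 and 7.67 CPM (3.21 ± 0.25, adjusted p = 6.44e-05), with 18.7, 11.1 and 14.8 CPM in control (difference -1.12, adjusted p = 0.0739). Casp8 rose by 2.75 and the BH3-only gene Bid by 2.32.

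Stress genes varied by class. Of 16 metallothionein and NRF2 target genes, 9 were higher (56.2%) and 1 lower, with Hmox1, heme oxygenase 1, rising from 5.31, 3.55 and 3.48 CPM to 166, 237 and 106 CPM (5.38 ± 0.35, adjusted p = 3.46e-05) and the metal-binding Mt2 from 27.2, 13.6 and 12.6 CPM to 413, 684 and 286 CPM (4.70 ± 0.45, adjusted p = 0.000316). The NRF2 target Nqo1 fell by 0.97 on the log2 scale (adjusted p = 0.0106), but not without Yap CKO 2 (adjusted p = 0.0524). Among 18 genes of endoplasmic reticulum and integrated stress, 8 were higher (44.4%, and 4 without C57 2 or Yap CKO 2) and 1 lower, and the chaperone gene Hspa5 did not pass (0.27, 95% interval -0.34 to 0.88). Heat shock genes gave 5 of 12 higher (3 without C57 2 or Yap CKO 2) and 3 lower. The cochaperone gene Bag3 rose by 2.43, and Hsp90aa1 fell from 2069, 2573 and 3296 CPM to 1028, 903 and 858 CPM (-1.50 ± 0.19, adjusted p = 0.000654). Hspa1a and Hspa1b, near-identical copies that can share reads, also fell (-1.82 and -1.85). Of 18 cholesterol synthesis genes, 3 were higher (16.7%, and 5 genes without C57 1) and 6 lower (33.3%), among them the isomerase gene Idi1 (-1.14), while Fdps, a prenyl diphosphate synthase gene, rose by 1.21.

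Among components of the Hippo pathway, 11 of 23 genes were higher than in C57 (47.8%) and 1 lower. Tead1, a DNA-binding partner of YAP, rose from 19.4, 24.2 and 32.5 CPM to 70.6, 89.9 and 99.5 CPM (1.78 ± 0.21, adjusted p = 0.000487), with 99.9 ± 2.54 CPM in control, and the scaffold gene Amotl1 by 1.46. The kinase gene Stk4 fell by 0.55 (adjusted p = 0.0135), though not without Yap CKO 2 or C57 2 (adjusted p = 0.07 and 0.0663). The count of higher members was 7 without C57 2 and 9 without Yap CKO 3. Over this list, 21 of 23 fitted differences from control were below 0, with a median of -0.21. At an unadjusted p under 0.05, 11 were lower and 0 higher, DESeq2 called 8 lower, and Yap1 alone passed. The counts over all 16539 genes, in either direction, were 2950 (unadjusted) and 922 (DESeq2), also for the target list that follows. Of 23 tested YAP and TAZ targets, 14 were higher (60.9%, and 12 without Yap CKO 3) and 1 lower, with medians of 0.84 in Yap CKO and 1.04 in control. Ccn1, a matricellular protein gene, measured 5.14, 2.81 and 4.19 CPM in C57, 21.8, 20.8 and 28.9 CPM in Yap CKO and 46.9, 72.2 and 52.9 CPM in control, without overlap (2.57 ± 0.25 against C57, adjusted p = 0.00018). Its difference from control of -1.27 did not pass (adjusted p = 0.0714). Ccn2, a target of the same family, did not pass against C57 (95% interval of the difference -0.56 to 0.56), and Ankrd1 was too low to be tested. No member of the target list passed between Yap CKO and control, where 20 of 23 fitted differences were below 0 and the median was -0.21. At an unadjusted p under 0.05, 9 were lower and 0 higher, and DESeq2 called 7 lower.

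Of 22 tested actin and contractile genes, 14 were higher (63.6%, and 13 without Yap CKO 3) and 3 lower. Flna, an actin crosslinker, rose from 59.6, 53.1 and 53.4 CPM to 278, 342 and 446 CPM (2.69 ± 0.19, adjusted p = 4.21e-05), and the membrane linker gene Msn by 2.64. Tagln, which encodes the actin-binding protein transgelin, measured 4.46, 4.52 and 2.27 CPM in C57, 4.04, 6.62 and 4.50 CPM in Yap CKO and 14.8, 20.5 and 15.5 CPM in control. Yap CKO overlapped C57 (0.44, 95% interval -0.27 to 1.16, adjusted p = 0.287) and lay below every control (-1.75 ± 0.22, adjusted p = 0.0496). Cnn2, a calponin gene, passed both ways, with 4.63, 2.67 and 2.49 CPM, 7.78, 12 and 9.66 CPM and 24.9, 31.9 and 27.9 CPM in C57, Yap CKO and control (1.60 ± 0.29 against C57, adjusted p = 0.00313, and -1.53 ± 0.17 against control, adjusted p = 0.0369). Lima1, Anxa1 and Myl9 fell against C57 (-1.43, -1.24 and -1.06), Myl9 not without Yap CKO 2 (adjusted p = 0.0708) or Yap CKO 1 (adjusted p = 0.057). Over the actin list, 20 of 22 fitted differences from control were below 0, with a median of -0.32. At an unadjusted p under 0.05, 10 were lower and 0 higher, beside 2950 of all 16539 genes in either direction. DESeq2 called 8 lower, beside 922 of all genes in either direction.

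TGF-beta and activin genes gave 11 of 22 higher (50%, and 10 without Yap CKO 3) and none lower. Smad3, a signal transducer of the pathway, rose by 1.27. Fstl3, an activin-binding protein gene, measured 4.54, 1.41 and 2.06 CPM in C57, 4.55, 4.94 and 5.85 CPM in Yap CKO and 9.44, 11.6 and 12.5 CPM in control. It did not pass against C57 (0.96, adjusted p = 0.0719) and was lower than in control (-1.13 ± 0.15, adjusted p = 0.0496). Without C57 1, the highest C57 library for this gene, it passed against C57 (adjusted p = 0.00221). It also passed against C57 on all libraries by DESeq2 and limma-voom (adjusted p = 0.0332 and 0.0313). Over the TGF-beta and activin list, 17 of 22 fitted differences from control were below 0, with a median of -0.20. At an unadjusted p under 0.05, 8 were lower and 1 higher, beside 2950 of all 16539 genes in either direction. DESeq2 called 5 lower and 1 higher, beside 922 of all genes in either direction. Of 27 matrix and protease genes, 14 were higher (51.9%, and 12 without Yap CKO 3) and 1 lower. Plau, urokinase, measured 0, 0.296 and 0.355 CPM in C57, 8.21, 9.10 and 8.59 CPM in Yap CKO and 13.9, 14.8 and 13.5 CPM in control (5.22 ± 0.46 against C57, adjusted p = 0.000109, and -0.71 ± 0.10 against control, adjusted p = 0.0496). Lama5, a laminin chain gene, likewise lay between C57 and control, at 12.8, 6.51 and 4.76 CPM, 23.8, 28.9 and 26.9 CPM and 45.7, 44.2 and 40.1 CPM (1.74 ± 0.32 against C57, adjusted p = 0.00378, and -0.71 ± 0.09 against control, adjusted p = 0.0496). Timp3, a matrix-bound metalloproteinase inhibitor, did not: 142, 152 and 197 CPM in C57, 162, 167 and 149 CPM in Yap CKO and 299.9, 331 and 375 CPM in control. Its Yap CKO and C57 libraries overlapped, with a difference of -0.03 (95% interval -0.38 to 0.31, adjusted p = 0.875), while it was lower than in control (-1.08 ± 0.10, adjusted p = 0.0188) and control was above C57 (1.06, adjusted p = 0.00125). The matricellular gene Sparc fell from 833, 674 and 542 CPM to 173, 212 and 311 CPM (-1.55 ± 0.24, adjusted p = 0.00167). Over the matrix list, 15 of 27 fitted differences from control were below 0, with a median of -0.24. At an unadjusted p under 0.05, 11 were lower and 4 higher, and DESeq2 called 8 lower and 2 higher, beside the same 2950 and 922 of all genes.

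Photoreceptor genes were low in the Yap CKO retinas. Of 25 rod genes, 16 were lower (64.0%, against 20.2% of all genes) and 9 did not pass, with a median of -3.21 (control -3.11). All 25 had every Yap CKO library below every C57 library, where 55.0% of all genes had no overlap in either direction. Gnat1, the rod transducin alpha subunit, measured 28570, 27440 and 24820 CPM in C57 and 4657, 2375 and 145 CPM in Yap CKO, and did not pass (-3.49 ± 1.13, adjusted p = 0.0543). The 3 Yap CKO libraries spread widely, as did the controls at 4365, 722 and 2024 CPM. Gnb1, a transducin subunit used by rods and other cells, fell from 8730, 10050 and 9307 CPM to 1513, 987 and 648 CPM (-3.15 ± 0.30, adjusted p = 0.00017), and Nr2e3, a rod fate factor, from 924, 650.5 and 745 CPM to 70.2, 45.5 and 16.4 CPM (-4.13 ± 0.53, adjusted p = 0.00141). DESeq2 called 24 of the 25 lower. The count depended on single libraries: all 25 passed as lower without Yap CKO 3, and 4, 5, 5 and 8 did so without the unnumbered C57 library, Yap CKO 2, C57 1 and C57 2. Of 15 cone genes, 8 were lower (53.3%, and 11 without Yap CKO 3) and 7 did not pass. Kcne2, a potassium channel subunit gene, had the smallest p of the list and fell from 85.2, 88.0 and 85.6 CPM to 12.6, 13.5 and 13.3 CPM (-2.71 ± 0.12, adjusted p = 8.08e-06), with 13.5 ± 0.957 CPM in control. Opn1mw, a cone opsin, fell from 341, 354 and 279.6 CPM to 13.2, 4.99 and 1.27 CPM (-5.64 ± 0.88, adjusted p = 0.00483). No rod or cone gene passed between Yap CKO and control, whose median differences were -0.01 and 0.07, with an interval of -3.59 to 3.62 for Gnat1. With an unadjusted p below 0.05, and also with DESeq2, 0 members of either list differed from control.

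**Figure D4:**
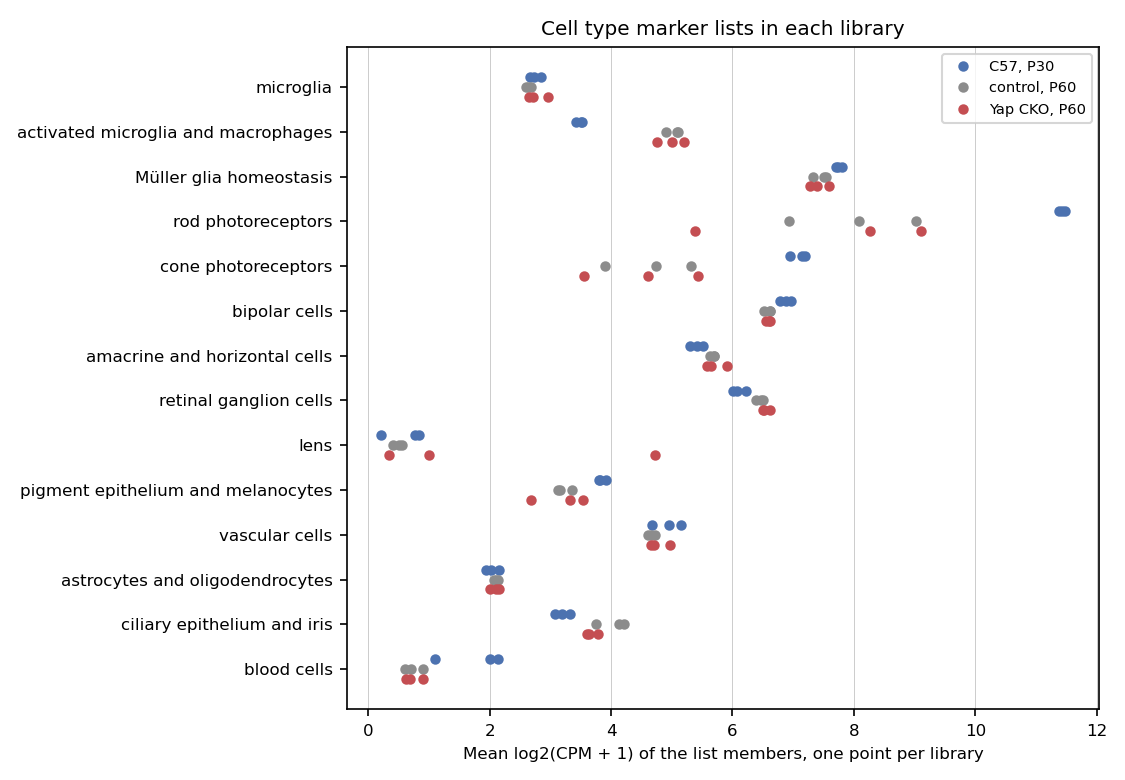
Mean log2(CPM + 1) of each cell type marker list in each library, 1 point per library and 1 colour per group. Rod genes were lower in all 6 P60 libraries than in C57, and Yap CKO 3, the lowest in rods, was the highest in lens genes at 4.72.

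Inner retinal genes passed at shares nearer to those of all genes. Of 20 bipolar cell genes, 2 were higher (10%, with 5 genes without C57 1 and 1 gene without any other single library) and 5 lower (25%), with a median of -0.23. Prkca, the kinase that marks rod bipolar cells, fell from 549, 660.1 and 628 CPM to 241, 224 and 289.8 CPM (-1.28 ± 0.15, adjusted p = 0.000404), while Trpm1, their light-response channel, did not pass (0.18, 95% interval -0.13 to 0.48). Of 20 amacrine and horizontal cell genes, 5 were higher (25%) and 2 lower (10%), with Th, the enzyme of dopamine synthesis, rising by 1.46 and Prox1 falling by 0.77, the latter not without Yap CKO 2, Yap CKO 1 or C57 2 (adjusted p = 0.0535 to 0.0667). Of 19 ganglion cell genes, 6 were higher (31.6%) and none lower. Gap43, a growth cone protein gene, rose from 46.2, 41.2 and 45.4 CPM to 98.1, 122 and 141 CPM (1.45 ± 0.16, adjusted p = 0.000312), and the ganglion cell gene Rbpms did not pass (0.30, adjusted p = 0.076). Without Yap CKO 3, 2 amacrine and horizontal and 3 ganglion cell genes passed as higher, and 2 of each did so without C57 2.

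Marker lists of other cells and neighbouring tissues were read against the 20.3% of all genes that were higher and the 20.2% that were lower, and their part in the other results was not tested. Of 15 pigment epithelium and melanocyte genes, 5 were lower (33.3%, and 8 genes without Yap CKO 1) and 2 higher (13.3%). Rpe65, the visual cycle isomerase of the pigment epithelium, fell from 34.4, 35.0 and 35.9 CPM to 8.69, 6.80 and 4.13 CPM (-2.42 ± 0.25, adjusted p = 0.000255), with 6.09 ± 1.77 CPM in control. Of 6 tested blood cell genes, 5 were lower (83.3%) and 1 higher (16.7%). The lower ones were all 4 tested globin genes and Alas2. For example, Hbb-bt had 18.4, 14.7 and 3.34 CPM in C57 and 0.556, 1.03 and 0.697 CPM in Yap CKO, and globin copies can share reads. Without C57 2, Yap CKO 1 or Yap CKO 2, 3 of these 5 genes passed. The leukocyte gene Ptprc was higher (1.35), but not without C57 2, Yap CKO 2 or Yap CKO 3 (adjusted p = 0.0538 to 0.0881). Of 13 tested lens genes 1 passed, Crybb3, with 3.69, 5.53 and 44.9 CPM in Yap CKO 1, 2 and 3, though not without any 1 of the C57 libraries (adjusted p = 0.0924 to 0.192). Summed over the list, lens genes reached 4.28 to 21 CPM in C57, 7.73 to 13.0 CPM in control, and 7.13, 34.1 and 1488 CPM in Yap CKO. The crystallin gene Cryaa, at 0.505, 12.5 and 536 CPM in Yap CKO and 0.257, 6.88 and 6.39 CPM in C57, was the highest of them in library 3. Of 18 vascular genes, 2 were higher (11.1%) and 3 lower (16.7%), both below the background, and without C57 2 or Yap CKO 2 none was lower. Of 8 tested astrocyte and oligodendrocyte genes, 2 were higher and 2 lower (25% each). Of 11 ciliary epithelium and iris genes, 4 were higher (36.4%) and 1 lower (9.09%), with summed levels of 808 to 896 CPM in C57, 1060 to 1212 CPM in control and 979 to 1176 CPM in Yap CKO. Against control, 10 of the 11 fitted differences were below 0, with a median of -0.62, and none passed. At an unadjusted p under 0.05, 6 were lower and 1 higher, beside 2950 of all 16539 genes in either direction. DESeq2 called 6 lower and 1 higher, beside 922 of all genes in either direction.

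The 33 genes that differed between Yap CKO and control were sorted by their position against C57. Of the 30 lower than control, 17 were higher than C57. These were Ccl2, Ccl7, Fosl1, Icam1, Plau, S100a6, Hbegf, Lama5, Cnn2, Vcam1, Fgfr1 and Irak2, described above, and Stx11, Lrrfip1, Arhgap22, Slc17a8 and Arrdc4. Among these 5, Lrrfip1 was the most even, with 8.74, 9.77 and 9.59 CPM in C57, 65.0, 68.5 and 68.1 CPM in Yap CKO and 101, 99.3 and 105 CPM in control (2.85 ± 0.13 against C57, adjusted p = 8.08e-06, and -0.60 ± 0.06 against control, adjusted p = 0.0222). Yap CKO held between 23.2% (Ccl2) and 66.0% (Lrrfip1) of the control mean over the 17 genes. A second class of 8 did not pass against C57: Yap1, Timp3, Tagln, Fstl3, Cflar, Pnrc2, Pde1c and Atp13a3. Of these, Atp13a3, Pde1c and Fstl3 passed without C57 1 (adjusted p = 0.00796, 0.0088 and 0.00221). On all libraries, DESeq2 called Fstl3 higher and Atp13a3 lower than C57 (adjusted p = 0.0332 and 0.0421). Both also passed with all 9 libraries in 1 fit (adjusted p = 0.0378 and 0.0242). Cflar, an inhibitor of caspase 8, measured 42.2, 44.1 and 60.6 CPM in C57, 51.5, 52.8 and 49.8 CPM in Yap CKO and 76.8, 82.5 and 79.8 CPM in control, a difference from C57 of 0.07 (95% interval -0.29 to 0.44) and from control of -0.64 ± 0.06 (adjusted p = 0.0214). Another class of 3, Dio2, Kirrel and Slc43a3, was lower than both, Slc43a3 with a call against C57 that single libraries ended (adjusted p = 0.0821 without Yap CKO 3). Dio2, the enzyme that activates thyroid hormone, measured 61.4, 103 and 178 CPM in C57, 28.6, 22.9 and 24.5 CPM in Yap CKO and 52.9, 48.8 and 54.4 CPM in control (-2.17 ± 0.35 against C57, adjusted p = 0.00227, and -1.04 ± 0.09 against control, adjusted p = 0.0188). The remaining 2, Dsg1a and Mylk2, were too low in C57 and Yap CKO to be tested against C57.

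Higher than control were Dbi and Raxos1, both also above C57, and Sfxn5, a mitochondrial carrier gene below C57. Raxos1, an RNA antisense to Rax whose promoter drives the Cre, measured 1.28, 0.592 and 0.852 CPM in C57, 0.289, 0.249 and 0.630 CPM in control and 3.51, 3.13 and 3.98 CPM in Yap CKO (3.16 ± 0.33 against control, adjusted p = 0.0242). The strand setting of the counting is not stated, and its reads and those of Rax cannot be told apart with certainty. The number of genes that passed between Yap CKO and control moved strongly with single libraries. It was 1473 without Yap CKO 3, 53 without control 3, 3 without Yap CKO 1, 1 without Yap CKO 2, and 0 by edgeR without control 1 or control 2, where 2035 and 2226 genes had an unadjusted p under 0.05. DESeq2 on all 6 libraries gave 922, with 32 of the 33 genes among them. All 33 genes were among the 1473, and 14 were among the 53 without control 3. The fit without Yap CKO 1 kept 3 of the 33, and 0 were kept without Yap CKO 2, control 1 or control 2. Under 12 other choices of scaling, filter, tool or block, Timp3, Irak2, Lrrfip1, Kirrel, Arrdc4 and Raxos1 passed in all 12. Yap1, Fosl1, Cnn2, Arhgap22, Dio2 and Slc43a3 passed in 11, and Ccl2, Icam1 and Cflar in 10. Vcam1, Hbegf, Fgfr1, Tagln and Fstl3 passed in 5, Ccl7 and Dbi in 4, S100a6 in 3, and Plau, Lama5 and Pde1c in 2. Single libraries mattered more: of the 6 leave-one-out fits, Arrdc4, Dio2 and Yap1 passed in 3 and every other gene in 1 or 2. Y-linked genes were read in every control library and in 1 of the Yap CKO libraries, so this comparison is not balanced for sex.

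**Figure D5:**
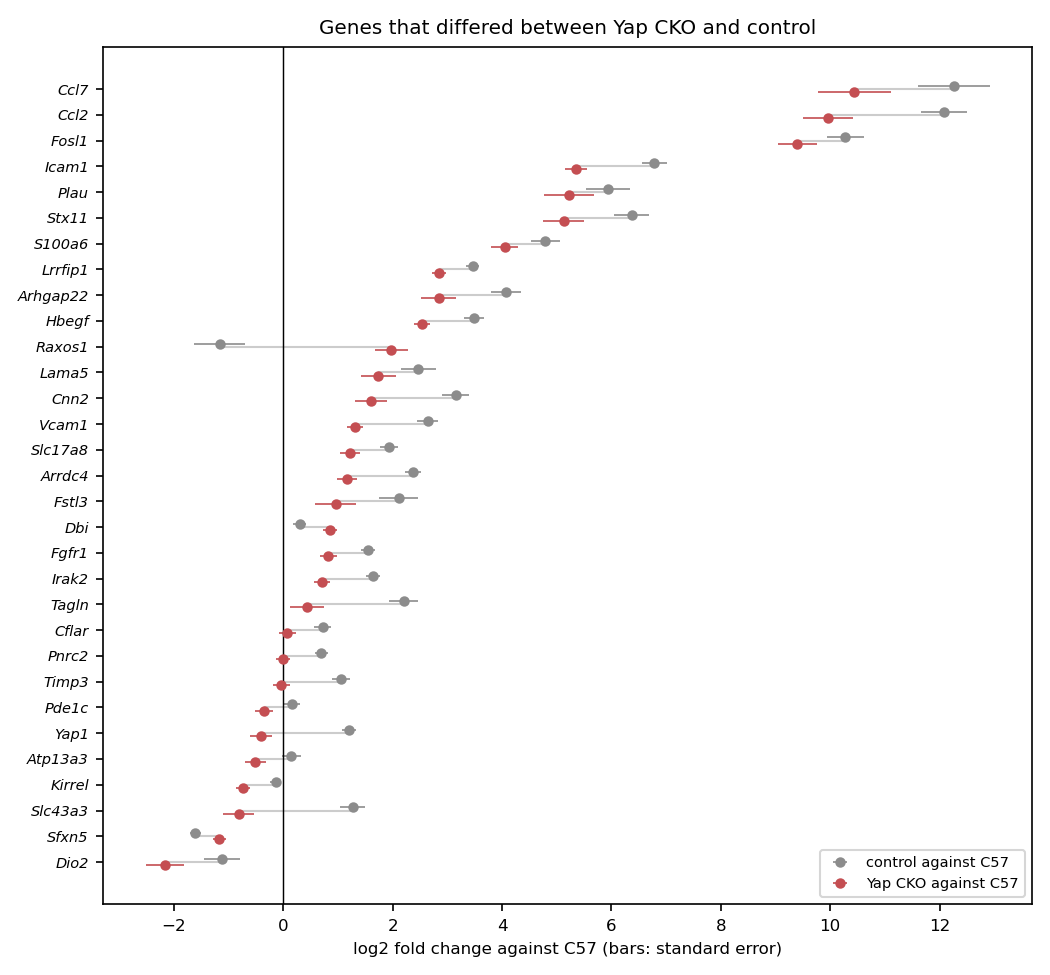
Log2 fold changes against C57, with standard errors as bars, for the 31 genes that differed between Yap CKO and control and were tested against C57 in both, red for Yap CKO and grey for control. Of these, 17 lower than control lay above 0 and passed in Yap CKO, and the values of Ccl7, Ccl2 and Fosl1, with 0 to 5 counts in C57, depend on edgeR's prior count.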

How the data were processed

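Whole-retina RNA-seq was deposited by the authors as raw read counts per Ensembl gene for 9 libraries, 3 per group. Per the submitters' processing notes, HISAT2 2.1.0, featureCounts and edgeR were used with GRCm38. For the annotation release and the strand setting, the sources used here give nothing. Per the labels' protocols and the series' design text, each P60 library was made from 1 µg of RNA of 1 frozen retina. The authors also deposited a table of log2 fold changes, p-values and adjusted p-values for genes filtered on another comparison, which was used only to compare signs and calls. Its 9 columns of values per library were not used.

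From the counts, genes with too few reads were removed (filterByExpr of edgeR 4.0.16, minimum count 10, total 15), libraries were scaled by TMM, and Yap CKO was tested against C57, Yap CKO against control and control against C57, each over its own 6 libraries, with the robust quasi-likelihood F-test in R 4.3.3. A gene passed at a Benjamini-Hochberg adjusted p under 0.05. CPM values printed are TMM-scaled over all 9 libraries, so they can differ slightly from the fitted log2 fold changes. The SE was taken as the fold change divided by the square root of F, and 95% intervals use the test's degrees of freedom. Intervals on ratios to 1 to 3 C57 counts, and the floor of 3 counts over the group used for a count of 0, cover counting error only. Symbols came from GENCODE M21, which matched 47224 of 47729 identifiers. Promoter sequences came from RefSeq. Scripts were tested on simulated data.

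The comparison and the 41 gene lists (806 of 807 entries matched) were chosen with earlier results of these data known, and they are described by counts and medians without a test of the list. Named genes are Yap1 and Wwtr1, the 12 largest changes per direction without overlap and at 5 CPM or more, the 3 smallest p per direction, up to 5 genes of smallest p per list with up to 3 that passed against the list's direction, the 3 most abundant of each cell list, and list members that passed against control. Not all of these are described, and a few are not reported here. Further list members, Gfap, Lcn2, Stat3, Jun and Egfr among them, and the genes in no list that passed against control, were named after their values were seen. Replicate libraries within a group differed by more than sampling noise in every pair. The C57 library whose column name matched no replicate label is called unnumbered. Alternatives covered scaling, count filter, test (DESeq2 1.42.0, limma-voom 3.58.1), depth, fold limit, replicate block and leaving out each library.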

Additional observations from a re-analysis of the deposited data

Results flagged for a closer look

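The effect against C57 differed between Yap CKO and control for 33 genes, by the direct test of Yap CKO against control (edgeR's quasi-likelihood test with Benjamini-Hochberg adjustment). The values are log2 fold changes in Yap CKO against control, 3 libraries each. The lowest were those of Dsg1a (-2.87), Mylk2 (-2.85), Ccl2 (-2.11), Slc43a3 (-2.08), Ccl7 (-1.82), Tagln (-1.75), Yap1 (-1.60), Cnn2 (-1.53), Icam1 (-1.42), Vcam1 (-1.31). Lower by a smaller amount were Stx11 (-1.23), Arhgap22 (-1.21), Arrdc4 (-1.20), Fstl3 (-1.13), Timp3 (-1.08), Dio2 (-1.04), Hbegf (-0.94), Irak2 (-0.92), Fosl1 (-0.86). The smallest differences among the lower genes were those of S100a6 (-0.73), Slc17a8 (-0.71), Lama5 (-0.71), Fgfr1 (-0.71), Plau (-0.71), Pnrc2 (-0.69), Atp13a3 (-0.65), Cflar (-0.64), Lrrfip1 (-0.60), Kirrel (-0.58), Pde1c (-0.50). Higher in Yap CKO were Sfxn5 (0.45), Dbi (0.56), Raxos1 (3.16). These calls moved with single libraries and settings, as given below.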

How the results depend on the processing

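The counts of genes higher (3217) and lower (3202) in Yap CKO than in C57 stayed within 1.5 times under 12 other choices of scaling, filter, test, depth and block. They fell to 1832 and 1397 when a fold change of at least 2 was required. Leaving out single libraries gave 2007 (without C57 2) to 4234 (without C57 1) higher and 1881 (without Yap CKO 2) to 3779 (without C57 1) lower. Scaling to inner retinal neurons moved the median over all genes from 0.02 to -0.10, with 2578 higher and 3568 lower, and no count filter moved it to 0.23, with 3664 and 2766. Of 322 named genes tested, 269 passed, and 225 of these held in every alternative other than the block. Most were missed without C57 2 (35) or without Yap CKO 2 (33). Bfsp2, a lens gene that did not pass (1.47), reversed to -2.23 under the replicate block, a fit that also left out Yap CKO 3. Without single libraries, Bfsp2 ranged from -2.0 (without Yap CKO 3) to 2.02 (without Yap CKO 1). The 33 calls between Yap CKO and control moved most: 15 with RLE scaling, with TMM without the 50 highest genes, with a filter of 1 CPM in 3 libraries and with bias-adjusted deviances, 16 with limma-voom, 17 with upper-quartile scaling and with a fold change of at least 2, 60 with all 9 libraries in 1 fit, 343 with no count filter and 922 with DESeq2. Without single libraries they ranged from 0 to 1473. Where a count moved, the cause was not tested.

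A fold change of at least 2 lowered the members called to 3 endothelin and FGF signals, 3 ERK feedback genes, 6 YAP and Hippo components, 1 S, G2 and M phase gene, 3 ER stress genes, 3 amacrine and horizontal genes, 2 ganglion cell genes and 2 ciliary genes higher, and 1 cholesterol, 2 bipolar and 1 vascular gene lower. The rod members lower (16) were 8 under scaling to inner neurons, 5 with no count filter, 10 with limma-voom, and 24 with DESeq2 and with a filter of 1 CPM in 3 libraries. The bipolar members lower (5) were 8 under scaling to inner neurons and with all 9 libraries in 1 fit, and the latter gave 8 amacrine and horizontal members higher. Scaling to inner neurons left 3 ganglion cell members higher. The lens members higher (1) were 0 under that scaling, with no count filter and with limma-voom, and 2 with all 9 libraries. The blood members lower (5) were 3 with no count filter and with limma-voom. Leaving out single libraries gave 7 to 11 YAP and Hippo components, 1 to 3 S, G2 and M phase genes, 4 to 8 progenitor factors, 4 to 8 ER stress genes, 3 to 4 chaperones, 2 to 7 amacrine and horizontal, 2 to 9 ganglion cell, 0 to 3 lens and 1 to 2 astrocyte and oligodendrocyte members higher, and 4 to 25 rod, 4 to 8 pigment epithelium, 0 to 4 vascular and 3 to 5 blood members lower. Small counts in the other direction of a list moved too, with 0 to 4 alkylation repair, 0 to 4 YAP and Hippo, 2 to 4 Notch and Wnt and 0 to 2 LIF pathway members lower and 1 to 5 bipolar and 2 to 5 cholesterol members higher.

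The replicate numbers were not shown to pair the libraries: deviations of same-numbered libraries correlated at -0.01 and -0.09 between Yap CKO and C57, and at 0.40, -0.03 and 0.04 between Yap CKO and control. With the number as a block, over the libraries that carry one in both groups, 2994 genes were higher (2586 of them among the 3217) and 2648 lower (2353 among the 3202), and 45 differed from control (21 among the 33). The block called 7 YAP and Hippo components, 1 S, G2 and M phase gene and 3 lens members higher, and 25 rod, 8 bipolar and 6 vascular members lower, and 18 named genes no longer passed. Read depth limits the precision of low C57 values. Thinning the P60 libraries to the shallowest C57 total left 5 named genes that no longer passed.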
